A study of Mus musculus with 16 samples.

Results

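Anti-PD-L1 added to sonidegib was examined by setting 4 mouse mammary tumour libraries from animals given both agents (the combination group) beside 4 from animals given sonidegib alone, which is 8 of the 16 libraries of the study. The members were chosen by the labels, and every gene with at least 1 FPKM (fragments per kilobase of transcript, scaled to library size) in at least 4 of the 16 libraries was compared, 15105 genes in all. Both groups carried MMTV-PyMT tumours, in which the mouse mammary tumour virus promoter drives the polyoma middle T antigen in mammary epithelium. The tumours came from transgenic donors aged 12 weeks and were placed in a mammary fat pad of FVB recipients, an inbred strain. Over 28 days, both groups received sonidegib at 20 mg/kg each day, and animals of the combination group were also dosed 2 times weekly with anti-PD-L1 antibody, at 5 mg/kg. The remaining 8 libraries came from tumours that received vehicle or the same antibody alone and serve here for the shared spread and for side-by-side values. The study asked how the 2 agents together act on tumour growth and on the entry of immune cells. The comparison here describes how libraries from tumours given both agents differed from those given sonidegib alone. The labels name no donor, litter or batch, so p-values measure the spread between these libraries, which may be partly technical.

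PD-L1 on tumour and myeloid cells engages PD-1 on T cells and restrains them, and antibodies that block this contact are used to release T cells. Activated T cells and natural killer cells secrete interferon-gamma, which acts through the kinases Jak1 and Jak2 to induce guanylate-binding proteins, immunity-related GTPases, the chemokines Cxcl9 and Cxcl10 and the antigen-presenting MHC molecules. Sonidegib binds Smoothened, the membrane protein that carries the Hedgehog signal towards the Gli factors. Monocytes that leave the blood through Ccr2 mature into tumour macrophages, and mouse inflammatory monocytes carry Ly6C on their surface.

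The epithelial markers Epcam (260 to 378 FPKM), Krt8 (187 to 697 FPKM) and Krt18 (249 to 760 FPKM) were high in all 8 libraries, in keeping with the label of a mammary tumour. The estimated depth of the 8 libraries was 35.8 to 57.8 M fragments (M, mega). Combination replicate 1 stood apart from its group. Its Spearman correlation across the tested genes was 0.871 to 0.890 with the other 3 combination libraries and 0.898 to 0.964 with the 4 sonidegib libraries, the highest being with sonidegib replicate 2. Combination replicates 2 to 4 correlated with each other at 0.937 to 0.955. The dependence of expression on GC content also separated it: its slope, in log2 units over the full range of GC, was 2.39, against -3.61 to -2.56 in combination replicates 2 to 4 and -1.85 to 2.98 in the sonidegib libraries. Adipocyte RNA was highest in the same library, with Cfd (adipsin) at 96.0 FPKM and Adipoq (adiponectin) at 7.61 FPKM, against at most 6.86 and 0.952 FPKM in the other 7 libraries. Whether its label and its tissue are right could not be established from the files, and this doubt bears on every value given with and without it. Most results below are therefore given with all 16 libraries and again without combination replicate 1. For passing genes printed only without it, the difference from sonidegib with all libraries had the same sign and an adjusted p above 0.05. Leaving out the library farthest from its group narrows the spread of that group by construction, so p-values without it are descriptive and are no independent support.

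**Figure D1:**
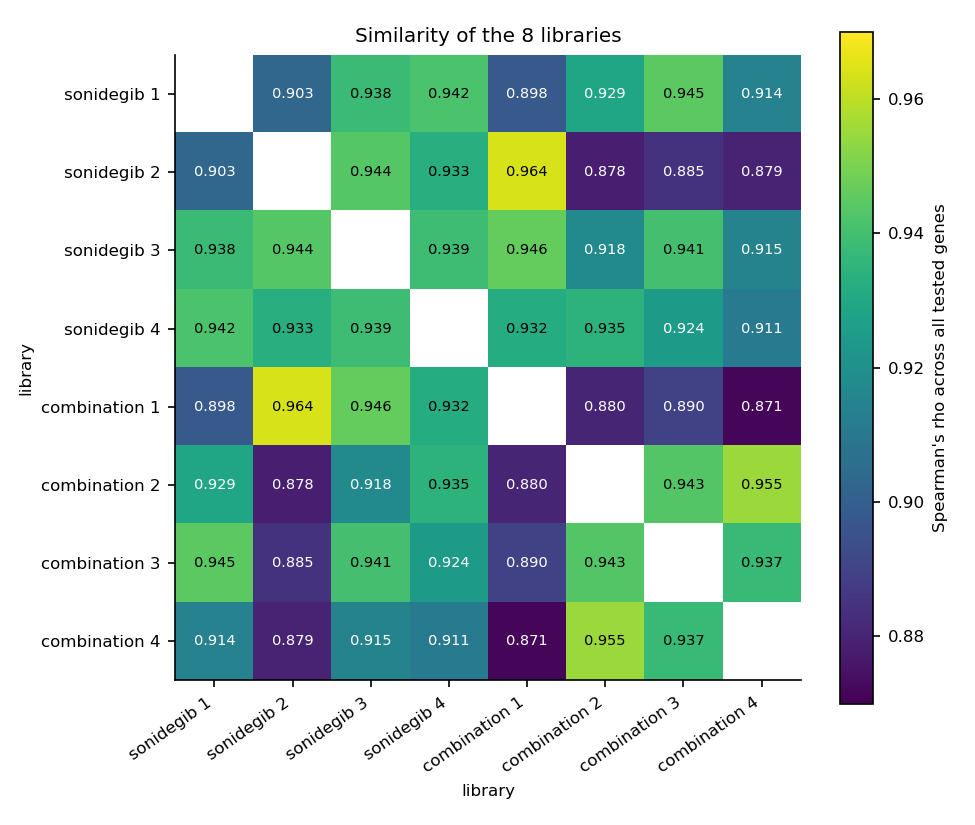
Spearman's rho (colour and printed number) between each pair of the 4 sonidegib and 4 combination libraries across all tested genes, with libraries on both axes. Combination replicate 1 is closest to sonidegib replicate 2 (0.964) and lies at 0.871 to 0.890 from the other combination libraries.

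The interferon-responsive genes below can be read against the DNA in front of them. The windows shown are the 250 bases before the first listed RefSeq start site (build GRCm38.p6), written 5′ to 3′ on the strand of the gene, and they were picked after the matches were known, because each holds one. Capitals mark the interferon-stimulated response element, searched as TTTC, any 2 bases and TTTC, or on the other strand GAAA, any 2 bases and GAAA, and the gamma-activated sequence, searched as TTCNNNGAA, which reads the same on both strands.
Igtp chr11:58199306-58199555, plus strand: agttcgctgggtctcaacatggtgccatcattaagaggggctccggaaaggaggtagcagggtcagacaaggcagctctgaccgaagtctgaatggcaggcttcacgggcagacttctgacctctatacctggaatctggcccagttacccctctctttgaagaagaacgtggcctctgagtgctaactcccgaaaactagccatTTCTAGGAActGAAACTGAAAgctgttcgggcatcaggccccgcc
Irgm1 chr11:48871421-48871670, minus strand: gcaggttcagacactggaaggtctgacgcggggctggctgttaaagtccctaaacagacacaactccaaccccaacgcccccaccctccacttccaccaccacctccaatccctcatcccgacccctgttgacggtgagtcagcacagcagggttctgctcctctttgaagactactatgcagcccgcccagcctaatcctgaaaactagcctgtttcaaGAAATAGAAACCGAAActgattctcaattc
Gbp2 chr3:142620413-142620662, plus strand: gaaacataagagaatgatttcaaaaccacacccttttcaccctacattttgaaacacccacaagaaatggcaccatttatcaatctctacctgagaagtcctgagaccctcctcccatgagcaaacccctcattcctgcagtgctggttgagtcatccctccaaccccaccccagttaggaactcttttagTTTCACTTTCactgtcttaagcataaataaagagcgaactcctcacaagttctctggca
Ifi205 chr1:174031756-174032005, minus strand: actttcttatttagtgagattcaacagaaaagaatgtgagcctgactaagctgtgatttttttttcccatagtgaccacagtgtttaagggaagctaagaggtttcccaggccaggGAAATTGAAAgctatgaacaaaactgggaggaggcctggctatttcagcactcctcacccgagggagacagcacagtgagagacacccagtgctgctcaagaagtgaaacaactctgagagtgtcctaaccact
In Igtp the gamma-activated sequence starts 45 bases and the response element 34 bases before the start site. Irgm1 holds 2 overlapping response elements, starting 30 and 24 bases before the start site, Gbp2 holds one at 59 bases and Ifi205 one at 134 bases. Of the 15105 tested genes, 9839 matched a window, and 2.7% of these windows held the response element and 5.88% the gamma-activated sequence. Among interferon-gamma induced GTPases and regulators, 12 of 18 tested genes had a window, 7 with the response element and 5 with the gamma-activated sequence. Of 13 windows of monocyte genes, 0 held either motif.

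Genes induced by low oxygen are shown in the same way, with the core of the hypoxia response element in capitals, searched as ACGTG or its complement CACGT. These examples too were picked because they hold a match.
Slc2a1 chr4:119108495-119108744, plus strand: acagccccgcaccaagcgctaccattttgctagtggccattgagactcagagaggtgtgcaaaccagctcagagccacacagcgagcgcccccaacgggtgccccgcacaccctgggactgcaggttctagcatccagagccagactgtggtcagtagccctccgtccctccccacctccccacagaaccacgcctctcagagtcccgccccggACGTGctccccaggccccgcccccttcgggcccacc
Egln3 chr12:54203875-54204124, minus strand: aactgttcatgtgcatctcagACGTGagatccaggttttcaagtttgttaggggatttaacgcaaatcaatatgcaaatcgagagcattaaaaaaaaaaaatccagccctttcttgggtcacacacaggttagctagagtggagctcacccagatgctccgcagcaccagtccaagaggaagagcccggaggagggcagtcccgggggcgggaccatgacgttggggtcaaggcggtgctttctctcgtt
Slc2a1 encodes the glucose transporter GLUT1, with the core 36 bases before its start site, and Egln3 encodes a prolyl hydroxylase that marks the hypoxia-inducible factor for decay, with the core at 229 bases. This 5-letter core was common: 21.7% of all windows held it, and 16 of 29 windows of the hypoxia and glycolysis list did. A match describes letters only and is not evidence that a factor was bound.

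With all libraries, limma called 0 of 15105 genes between the combination and sonidegib (0% called at an adjusted p of 0.05), and the lowest adjusted p was 0.641. At an unadjusted p under 0.05 there were 326 higher genes (2.16% of those tested) and 321 lower genes (2.13%), and with median-of-ratios scaling of the libraries these became 642 higher and 240 lower, still with 0 called. The median gene differed by -0.07 on the log2(FPKM + 1) scale, on which all differences below are given and on which low genes show smaller changes than their FPKM ratio. All 4 combination libraries lay above all 4 sonidegib libraries for 73 genes (0.483%) and below them for 368 genes (2.44%). Without combination replicate 1, 115 genes passed, 105 of them higher (0.695%) and 10 lower (0.0662%). The shares in this paragraph are the background for the counts of list members below, also where they are not repeated. Each of the other 7 libraries of the comparison was left out in turn as well, and limma then called 0 genes. All 115 had the same sign with all 8 libraries, and 96 had an unadjusted p under 0.05 there. Combination replicate 1 lay within the sonidegib range for 46 of the 105 higher genes, below all sonidegib libraries for 56 and above them for 3. Genes named from this fit beyond the fixed rule were chosen after their values were seen.

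The 105 higher genes were low in GC, with a median of 43.6% over the 91 that have a value, against 49.3% for all tested genes, and combination replicates 2 to 4 had the steepest negative GC slopes of the 8 libraries. With the GC trend removed from each library and combination replicate 1 left out, 84 genes passed, and 73 of the 115 were among them (67 higher and 6 lower). Values with this correction are given below where they ended a call.

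Among 20 monocyte genes and monocyte chemokines, 12 had combination replicates 2 to 4 above all sonidegib libraries (against 7.23% of tested genes). The values of this list are given below, after those of Ly6a, the named higher gene with the lowest p, and its neighbours. Ly6a, which encodes the surface protein Sca-1 (chromosome 15, 74994877 to 74998031, minus strand, GRCm38), was at 20.1, 17.6, 27.8 and 18.8 FPKM in sonidegib replicates 1 to 4. In combination replicates 1 to 4 it was at 30.1, 157, 175 and 193 FPKM. The groups did not overlap, but replicate 1 lay near the sonidegib level while the other 3 formed a tight group. The log2 difference was 2.39 (SE 0.47, adjusted p = 0.641), and 3.01 (SE 0.34, adjusted p = 0.000582) without replicate 1. With vehicle Ly6a was at 18.5 ± 11.04 FPKM (SD, n = 4) and with anti-PD-L1 alone at 19.1 ± 4.98.

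Ly6a lies in a row of Ly6 genes on chromosome 15 that encode small lipid-anchored surface proteins. Ly6c1 was at 8.35, 3.09, 5.94 and 6.53 FPKM with sonidegib and 11.1, 14.6, 19.8 and 23.4 FPKM with the combination. Its log2 difference was 1.40 (SE 0.31, adjusted p = 0.959), and 1.58 (adjusted p = 0.0246) without replicate 1. Here replicate 1 was also above every sonidegib library. Ly6c2 was at 1.13, 0.899, 0.816 and 1.52 FPKM with sonidegib and 0.781, 4.08, 6.40 and 6.44 FPKM with the combination, a difference of 1.19, and of 1.66 (adjusted p = 0.000849) without replicate 1. Replicate 1 was below all sonidegib libraries for this neighbour. Ly6i, which lies on the other side of Ly6a, differed by 0.99, and by 1.45 (adjusted p = 0.0347) without replicate 1. These 4 genes were the only tested ones between 74979534 and 75111970, a stretch bounded by the outermost of them. Ly6e, just outside it and far more abundant, was at 914 to 1599 FPKM with sonidegib and 1234 to 1576 FPKM with the combination (0.20). Farther along the chromosome, Ly6d overlapped between the groups (0.41, and 0.84 with adjusted p = 0.630 without replicate 1). Ly6k went the other way, at 11.1, 1.63, 2.02 and 1.67 FPKM with sonidegib and 0.850, 0.286, 0.180 and 0.620 FPKM with the combination. Its difference was -1.45 (adjusted p = 0.959), and -1.57 (adjusted p = 0.292) without replicate 1. Ly6c1 and Ly6c2 are closely related genes, and how the authors' counting divides fragments between related genes is not given, so the split between them is uncertain.

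The chemokine gene Ccl8, whose product draws monocytes, was at 27.8, 6.77, 27.5 and 34.6 FPKM with sonidegib and 57.8, 63.2, 75.5 and 95.7 FPKM with the combination. Every combination library, including replicate 1, was above every sonidegib library. The log2 difference of 1.74 (SE 0.42) had an adjusted p of 0.959, and without replicate 1 it was 1.84 (adjusted p = 0.0797). Vehicle tumours had 6.33 ± 3.09 FPKM and anti-PD-L1 tumours 19.9 ± 8.39 (SD, n = 4), a log2 difference of 1.54, and the interaction of the antibody with sonidegib was 0.19 (SE 0.60, adjusted p = 0.889).

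Ccr2, the receptor that lets monocytes leave the marrow and enter tissue, was at 1.95, 1.38, 1.64 and 2.08 FPKM with sonidegib and 1.59, 7.29, 6.43 and 9.30 FPKM with the combination. The difference was 1.21, and 1.64 (adjusted p = 0.00339) without replicate 1, which lay within the sonidegib range. Plac8, a gene of immature myeloid cells, was at 3.05, 2.10, 6.24 and 3.11 FPKM against 4.23, 18.4, 12.1 and 20.7 FPKM (1.57, and 2.01 with adjusted p = 0.00289 without replicate 1). Ccl11, or eotaxin, which draws eosinophils, differed by 0.81, and by 1.01 (adjusted p = 0.0279) without replicate 1. With the GC trend also removed, the adjusted p was 0.0251 for Ccr2, 0.00174 for Plac8 and 0.11 for Ccl11. Of the 20 monocyte genes and monocyte chemokines, 19 had a difference above 0, and 14 had an unadjusted p under 0.05 (against 2.16% of tested genes, higher). Without replicate 1, 6 passed (against 0.695%, higher). Their median difference was 0.80, and 1.03 without replicate 1. This list, like every gene list here, was chosen with earlier results of these libraries known, so the direction of a list is not independent evidence. In bulk tissue, more cells of a type and more RNA per cell cannot be told apart.

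**Figure D2:**
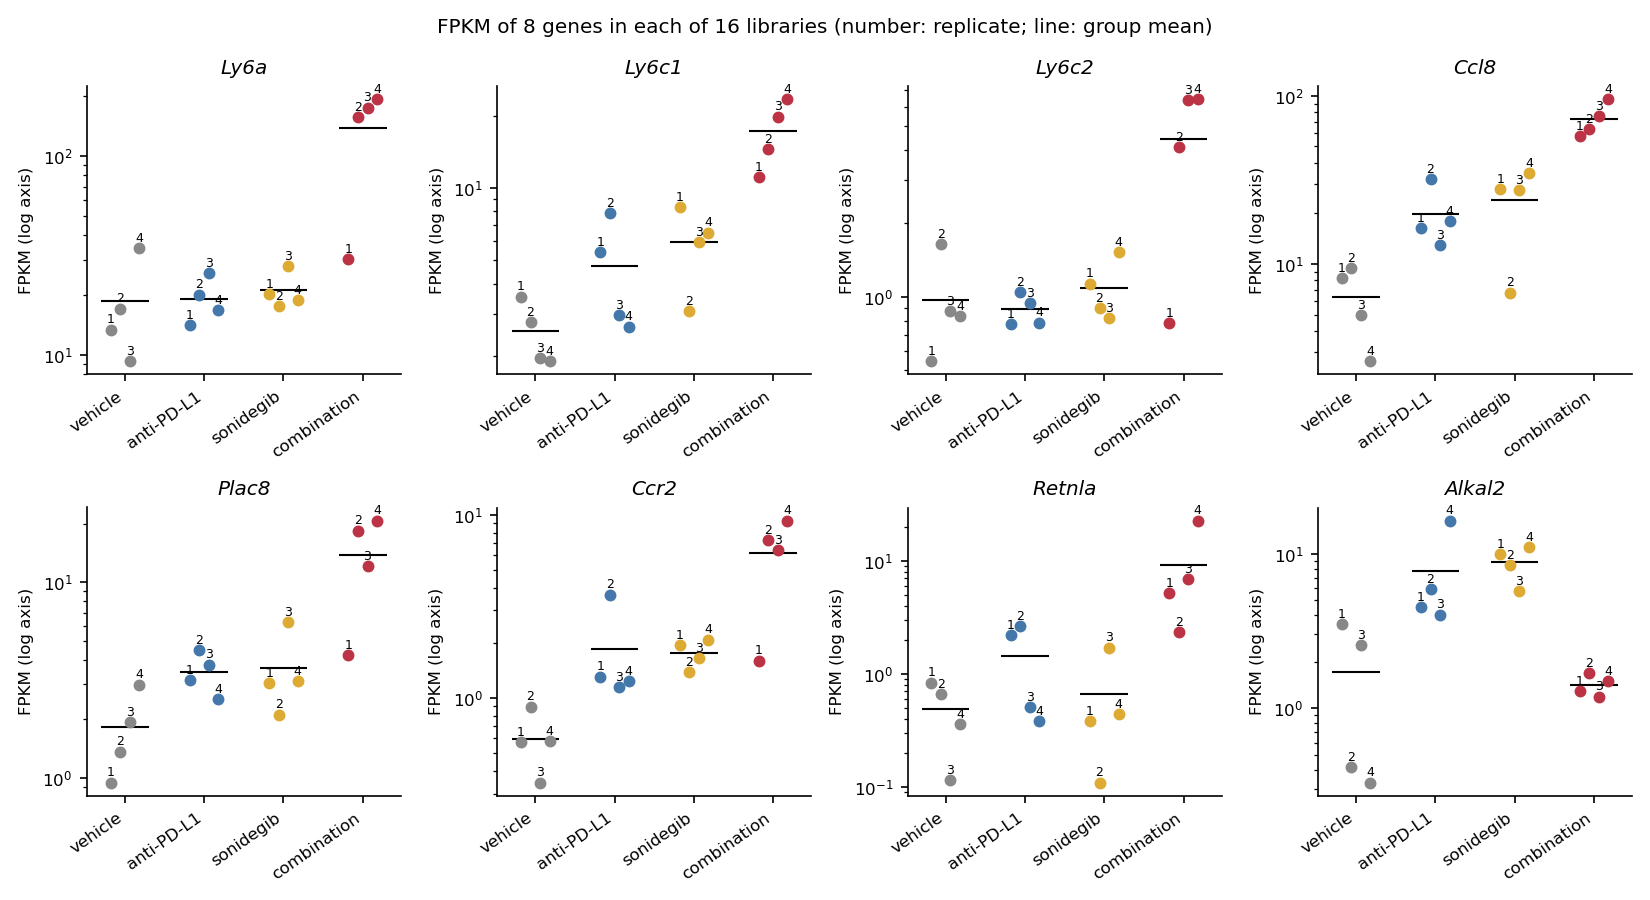
FPKM on a log axis in each of the 16 libraries for 8 genes, grouped by treatment, where each point is 1 library numbered by replicate and the line is the group mean. Ly6a, Ly6c2, Plac8 and Ccr2 are high in combination replicates 2 to 4 only, Ccl8 and Ly6c1 are high in all 4 combination libraries, and Alkal2 is low in all 4.

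Interferon-gamma induced GTPases attack the membranes around intracellular microbes. Which interferon acted on these tumours was not tested. Of the 20 listed GTPases and regulators with a value, 14 had combination replicates 2 to 4 above all sonidegib libraries (against 7.23% of tested genes). This count includes 2 genes under the filter, for which the share of tested genes is no background. Iigp1, an immunity-related GTPase, was at 16.5, 10.2, 29.0 and 40.4 FPKM with sonidegib and 6.94, 188, 356 and 203 FPKM with the combination. Replicate 1 was below every sonidegib library while the others were above all of them. The difference was 2.20 (SE 0.92, adjusted p = 0.959), and 3.43 (SE 0.42, adjusted p = 0.000642) without replicate 1. Igtp (chromosome 11, 58199556 to 58207591, plus strand), whose upstream window is printed above, was at 15.3, 26.5, 38.3 and 61.7 FPKM against 18.6, 83.5, 222 and 88.9 FPKM. Its difference was 1.23, and 1.88 (adjusted p = 0.0333) without replicate 1. Gbp8, a guanylate-binding protein, was at 0.703, 0.447, 3.15 and 4.27 FPKM against 0.152, 25.0, 51.3 and 11.9 FPKM, a difference of 2.14, and of 3.26 (adjusted p = 0.00485) without replicate 1. All 18 tested members of the list had a difference above 0, and 7 had an unadjusted p under 0.05 (against 2.16% of tested genes, higher). Without replicate 1, 6 members passed (against 0.695%, higher). Their median was 0.86, and 1.32 without replicate 1.

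The 6 were Iigp1, Igtp, Irgm1, Gbp6, Gbp8 and Gbp9, and with the GC trend removed too Gbp6 no longer passed (adjusted p = 0.0678). Gbp2, whose window is shown above, was at 15.9, 16.4, 25.3 and 48.4 FPKM against 13.1, 49.2, 91.2 and 50.3 FPKM (0.78, and 1.32 with adjusted p = 0.168). The receptor chains Ifngr1 and Ifngr2 and the kinases Jak1 and Jak2 differed by 0.11 to 0.26. Ifng itself was under the filter, at 0.0176 to 0.192 FPKM with sonidegib and 0.102 to 0.525 FPKM with the combination (exact permutation p = 0.0857, two-sided, n = 4 and 4). The deposited identifier of Irgm1 was not matched in GENCODE M21, and Igtp shares sequence with the overlapping gene Irgm2, so the values of these 3 genes are uncertain where fragments could belong to more than one.

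Many of these genes sat beside each other. The stretches below were picked after the calls were known. Each runs from its first to its last passing gene, so a high share passing within it is partly by construction. On chromosome 5, Gbp6, Gbp8, Gbp9, Gbp10 and Gm43302 lay between 105014150 and 105293698, and 5 of the 6 genes tested there passed without replicate 1. On chromosome 18, Iigp1, Gm4951, F830016B08Rik, Gm5970 and BC023105 were the 5 tested genes between 60212080 and 60442980, and all 5 passed, with log2 differences of 1.66 to 3.43. On chromosome 1, Aim2, Ifi204, Ifi205 and Ifi211, members of the interferon-inducible p200 family, passed among 7 tested genes between 173350879 and 174031810. Ifi205 was at 1.66, 0.286, 1.99 and 1.23 FPKM with sonidegib and 2.32, 3.39, 6.39 and 6.12 FPKM with the combination, so that all 4 combination libraries were above (1.27, and 1.49 with adjusted p = 0.0290 without replicate 1, or 0.124 with the GC trend removed too). Guanylate-binding proteins overlap in this annotation (Gbp8 with Gbp9, and Gbp6 and Gbp10 with Gm43302), and their fragments may be shared.

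Genes of MHC class II, which shows peptides to CD4 T cells, had a median difference of 1.03 over 9 tested members, and 1.24 without replicate 1. H2-Aa, the alpha chain of I-A, was at 6.99, 30.1, 46.8 and 46.9 FPKM with sonidegib and 22.1, 189, 124 and 154 FPKM with the combination. Replicate 1 lay within the sonidegib range, and the difference was 1.81 (SE 0.66, adjusted p = 0.959), or 2.49 (adjusted p = 0.0365) without it. Ctss, the protease that trims the invariant chain, was at 47.4, 49.4, 75.1 and 78.0 FPKM against 42.2, 231, 134 and 214 FPKM (1.08, and 1.61 with adjusted p = 0.0327). With the GC trend removed too, the adjusted p was 0.0767 for H2-Aa and 0.0556 for Ctss. Cd74, the invariant chain, was at 28.1, 175, 201 and 247 FPKM against 111, 526, 551 and 397 FPKM, a difference of 1.41 that did not pass either way (adjusted p = 0.148 without replicate 1). Of the 9 tested members, 6 had an unadjusted p under 0.05 (against 2.16% of tested genes, higher) and 2 passed without replicate 1 (against 0.695%). Sonidegib replicate 1 had the lowest summed level of all 11 genes in the list, 117 FPKM, against 356 to 501 FPKM in the other sonidegib libraries, 248 FPKM in combination replicate 1 and 939 to 1162 FPKM in combination replicates 2 to 4.

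Among 19 tested genes of MHC class I presentation, which shows peptides to CD8 T cells, 18 had a difference above 0. An unadjusted p under 0.05 was found for 5 (against 2.16% of tested genes, higher). The median was 0.55, or 0.81 without replicate 1. B2m, the light chain of every class I molecule, was at 524, 1083, 968 and 828 FPKM with sonidegib and 766, 2759, 1996 and 4819 FPKM with the combination. Its difference was 1.37, and 1.86 (adjusted p = 0.0574) without replicate 1. Nlrc5, the transactivator of class I genes, was the 1 member to pass without replicate 1: it was at 5.62, 9.13, 9.63 and 7.33 FPKM against 5.52, 17.9, 31.0 and 18.6 FPKM (0.93, and 1.38 with adjusted p = 0.0477).

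T cell genes were low throughout, and 16 of the 24 listed were under the filter. Cd3g, a chain of the T cell receptor complex, was at 0.165, 0.474, 1.24 and 0.920 FPKM with sonidegib and 0.679, 4.17, 3.29 and 6.34 FPKM with the combination. Its difference was 1.30 (SE 0.33, adjusted p = 0.959), and 1.73 (adjusted p = 0.00284) without replicate 1, which lay within the sonidegib range. Trbc2, a constant region of the receptor beta chain, was at 0.391, 1.22, 2.83 and 2.25 FPKM against 0.430, 9.13, 6.37 and 9.93 FPKM, and Trac, the alpha constant region, at 0.502, 0.340, 1.37 and 0.872 FPKM against 0.258, 2.60, 3.81 and 3.07 FPKM. Both passed without replicate 1 (1.91 with adjusted p = 0.00485, and 1.26 with adjusted p = 0.0132), as did Trbc1 (1.6, adjusted p = 0.00126), a near copy of Trbc2 whose share of the fragments is uncertain. Of the 8 tested members, 7 had a difference above 0, and 5 had an unadjusted p under 0.05 (against 2.16% of tested genes, higher). Without replicate 1, 4 passed (against 0.695%, higher). The median was 0.75, and 0.99 without replicate 1. Combination replicates 2 to 4 were above all sonidegib libraries for 17 of the 24 listed genes, a count that includes genes under the filter, for which the share of tested genes is no background. The summed level of the 24 was 12.3 to 21.6 FPKM with sonidegib, 13.1 FPKM in combination replicate 1 and 41.7 to 46.1 FPKM in combination replicates 2 to 4.

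Neither coreceptor was tested by limma. Cd8a was at 0.0598, 0.257, 0.677 and 0.782 FPKM with sonidegib and 0.397, 1.58, 2.37 and 1.27 FPKM with the combination (exact permutation p = 0.0857, two-sided, n = 4 and 4). Cd4 was at 0.290 to 0.585 FPKM against 0.320 to 0.873 FPKM (exact p = 0.114), and Foxp3, the factor of regulatory T cells, at 0.0561 to 0.163 FPKM against 0.0495 to 0.267 FPKM (exact p = 0.771). The smallest p that 4 against 4 libraries can give is 0.0286. Among cytotoxic effectors, 3 of 20 were tested, with a median of 0.45. Nkg7, a granule protein of cytotoxic cells, was at 0.315, 0.751, 1.67 and 2.15 FPKM against 0.522, 3.27, 5.57 and 3.92 FPKM (0.86, and 1.30 with adjusted p = 0.0528 without replicate 1, or 0.0368 with the GC trend removed too). Gzmb, or granzyme B, was at 0.385, 0.333, 1.52 and 1.06 FPKM against 1.59, 0.658, 1.20 and 1.43 FPKM, and the groups overlapped (0.32). Of 10 natural killer cell markers, a separate list, 8 were under the filter and 2 were tested, and these went opposite ways. Xcl1, a chemokine of natural killer and CD8 T cells, was at 0.836, 0.781, 2.84 and 2.50 FPKM against 0.963, 5.15, 7.24 and 8.93 FPKM (1.12, and 1.63 with adjusted p = 0.0176 without replicate 1). Itga2 differed by -0.22, and by -0.42 (adjusted p = 0.596) without replicate 1.

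Among T cell attracting chemokines, Cxcl9, which interferon-gamma induces, was high in the same 3 combination libraries. It was at 0.445, 1.65, 4.76 and 4.71 FPKM with sonidegib and 0.535, 21.2, 20.3 and 12.6 FPKM with the combination. The difference was 1.57 (SE 0.71, adjusted p = 0.959), and 2.47 (adjusted p = 0.00451) without replicate 1. Cxcl11 and the receptor Cxcr6 passed without replicate 1 (1.20 with adjusted p = 0.0226, and 0.94 with adjusted p = 0.0365), but not with the GC trend removed too (adjusted p = 0.0947 and 0.157). Cxcl10 was at 0.801, 1.05, 1.70 and 2.83 FPKM with sonidegib and 1.59, 2.30, 7.84 and 3.69 FPKM with the combination, so that the groups overlapped also without replicate 1, and it did not pass (0.80, and 1.05 with adjusted p = 0.118). Of 11 tested members, 10 had a difference above 0 and 4 an unadjusted p under 0.05 (against 2.16% of tested genes, higher). The median was 0.45, or 0.65 without replicate 1.

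The target of the antibody, Cd274 (PD-L1), was under the filter at 0.592, 0.459, 1.09 and 0.378 FPKM with sonidegib and 0.417, 0.710, 2.07 and 1.20 FPKM with the combination (exact permutation p = 0.257, n = 4 and 4). Its receptor Pdcd1 (PD-1) was at 0.0557, 0.315, 0.805 and 0.669 FPKM against 0.291, 1.24, 0.898 and 1.06 FPKM (exact permutation p = 0.171). Both pairs of groups overlapped. Among 14 tested checkpoints and costimulators the median difference was 0.23, and 2 had an unadjusted p under 0.05. Cd86, a ligand of CD28 and CTLA-4 on antigen-presenting cells, was at 0.766, 0.885, 1.36 and 1.26 FPKM against 0.636, 5.76, 2.63 and 4.23 FPKM. It was the 1 member to pass without replicate 1 (0.89, and 1.30 with adjusted p = 0.0132).

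**Figure D3:**
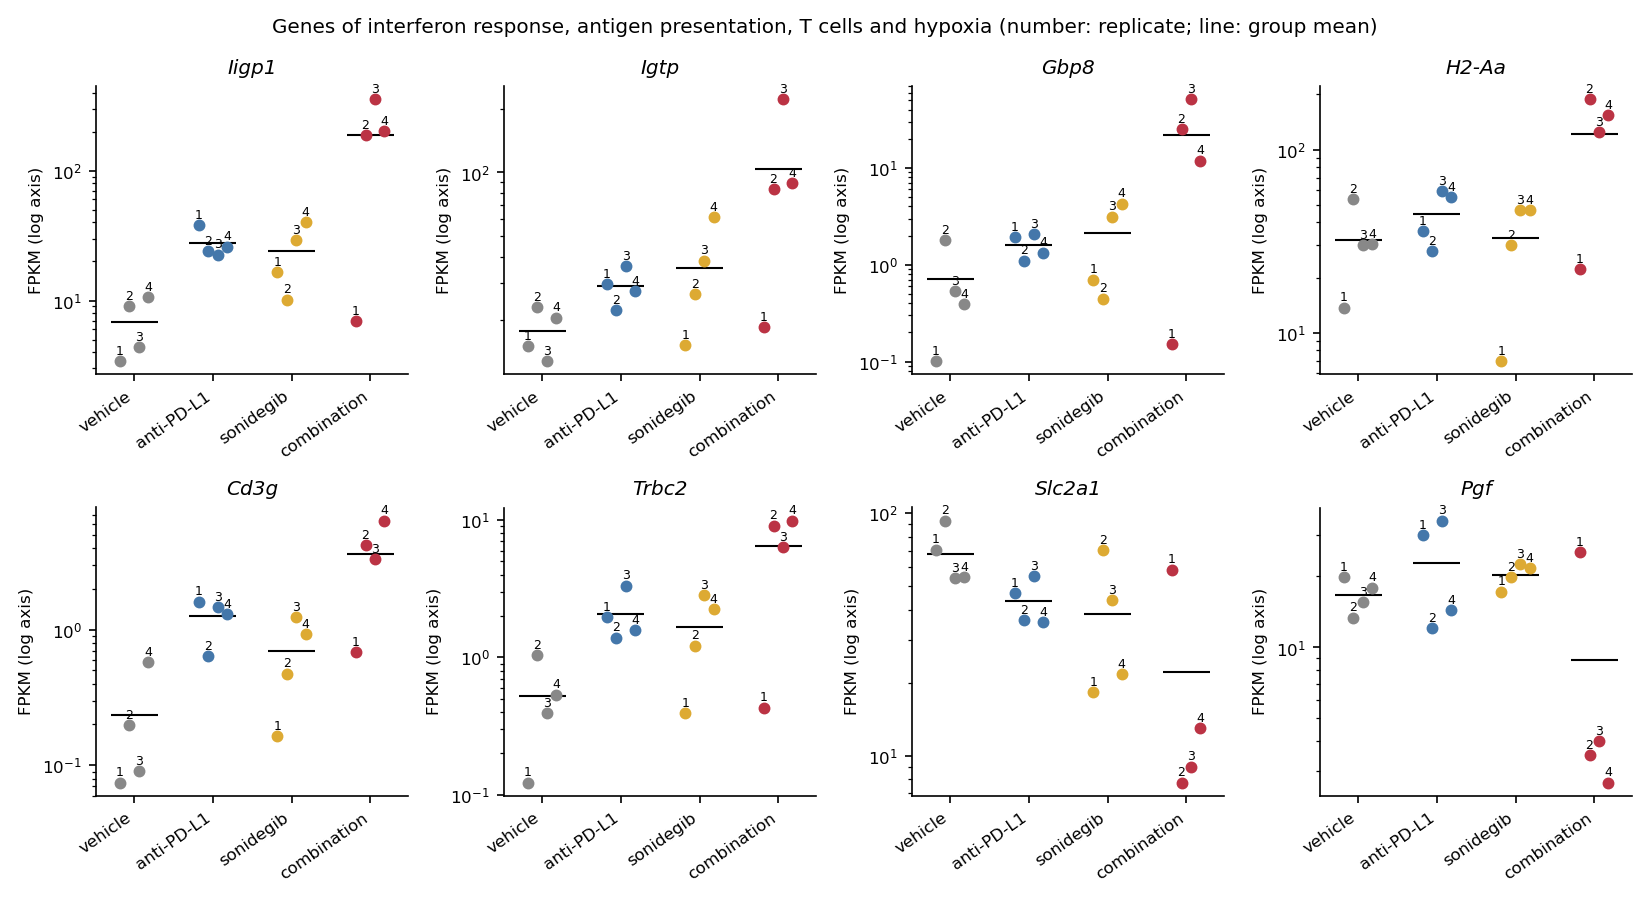
FPKM on a log axis in each of the 16 libraries for 8 genes of the interferon response, antigen presentation, T cells and hypoxia, with points numbered by replicate and lines at the group means. For Iigp1, Igtp, Gbp8, H2-Aa, Cd3g and Trbc2, combination replicates 2 to 4 are above all sonidegib libraries and replicate 1 is not, and for Slc2a1 and Pgf the same 3 libraries are below.

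Type I interferon response genes, which defend cells against viruses, overlapped between the groups. All 24 had a difference above 0, with a median of 0.46, but 1 had an unadjusted p under 0.05 and 0 passed without replicate 1. Ifit1 was at 19.2, 13.01, 11.9 and 3.69 FPKM with sonidegib and 12.7, 10.9, 17.4 and 66.2 FPKM with the combination (0.89, adjusted p = 0.959). The high values came from combination replicate 4, where the summed level of the list was 1025 FPKM, against 227 to 551 FPKM in the other combination libraries and 197 to 469 FPKM with sonidegib.

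Of 18 macrophage markers, 15 had a difference above 0 and 3 an unadjusted p under 0.05, with a median of 0.43. Aif1, an actin-binding protein of macrophages, was at 5.39, 6.62, 8.21 and 7.60 FPKM with sonidegib and 7.17, 25.9, 12.9 and 22.7 FPKM with the combination (1.06, and 1.39 with adjusted p = 0.0383 without replicate 1). Tyrobp, the adaptor of myeloid receptors, was at 29.5, 32.9, 35.7 and 48.2 FPKM against 36.0, 123, 51.0 and 109 FPKM (0.95, and 1.27 with adjusted p = 0.0782). Among 15 tested alternatively activated and resident macrophage genes the median was 0.39, and 0.24 without replicate 1. Retnla, a secreted protein of alternatively activated macrophages, was at 0.383, 0.109, 1.71 and 0.444 FPKM against 5.17, 2.34, 6.87 and 22.8 FPKM. All 4 combination libraries were above all sonidegib libraries, and the difference of 2.33 (SE 0.48) had an adjusted p of 0.959, or 0.0612 without replicate 1 (2.45). Adipose tissue also expresses Retnla, and adipocyte markers were high in combination replicate 1; their part in this value was not tested.

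Of the 32 listed genes of the low-oxygen response and glycolysis, 1 of them under the filter, 18 had combination replicates 2 to 4 below all sonidegib libraries (against 11.8% of tested genes). Slc2a1 (chromosome 4, plus strand), whose window is printed above, was at 18.3, 70.2, 43.6 and 21.7 FPKM with sonidegib and 58.5, 7.73, 9.01 and 13 FPKM with the combination. Its difference was -1.06 (SE 0.50, adjusted p = 0.959), and -1.68 (adjusted p = 0.0423) without replicate 1, or 0.0610 with the GC trend removed too. Ak4, a mitochondrial adenylate kinase, was at 8.84, 19.1, 10.9 and 5.22 FPKM against 10.3, 3.17, 1.66 and 1.498 FPKM (-1.39, and -1.86 with adjusted p = 0.00869 without replicate 1). Egln3 was at 42.2, 56.7, 41.2 and 41.8 FPKM against 43.2, 22.2, 17.2 and 26.6 FPKM (-0.78, and -1.02 with adjusted p = 0.0941). Car9, the carbonic anhydrase of acidic tumour regions, was at 25.2, 31.1, 22.6 and 18.8 FPKM against 26.0, 10.6, 10.5 and 9.79 FPKM (-0.83, and -1.15 with adjusted p = 0.0558).

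Of the 31 tested members, 30 had a difference below 0, and 10 had an unadjusted p under 0.05 (against 2.13% of tested genes, lower). Without replicate 1, 2 members, Slc2a1 and Ak4, passed (against 0.0662%, lower). The median was -0.66, and -0.99 without replicate 1, against -0.07 for all tested genes. Hif1a and Epas1, the oxygen-regulated factors themselves, differed by -0.03 and 0.06 in RNA. The summed level of the list was 3103 to 7135 FPKM with sonidegib, 6104 FPKM in combination replicate 1 and 1824 to 2783 FPKM in combination replicates 2 to 4.

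The lower genes without replicate 1 included Pgf. Pgf, placental growth factor (chromosome 12, minus strand), was at 17.2, 19.9, 22.6 and 21.8 FPKM with sonidegib and 25.4, 3.49, 4.01 and 2.67 FPKM with the combination. Replicate 1 was above every sonidegib library, and the other 3 were below every one. The difference was -1.64 (SE 0.47), and -2.29 (adjusted p = 0.00126) without replicate 1. Apln, apelin, an endothelial peptide (-1.20 without replicate 1, adjusted p = 0.0355, or 0.0658 with the GC trend removed too), and Nes, the intermediate filament nestin (-1.71, adjusted p = 0.0169), also passed. Col4a6, a basement membrane collagen, was at 19.2, 14.9, 15.3 and 19.0 FPKM against 13.4, 9.52, 6.30 and 4.14 FPKM, with every combination library below every sonidegib library (-1.05, adjusted p = 0.959, and -1.29 with adjusted p = 0.0280 without replicate 1, or 0.0767 with the GC trend removed too). Espn (-1.55, adjusted p = 0.0176), Igsf9 (-1.29, adjusted p = 0.0477, or 0.122 with the GC trend removed too) and Gm11960 (-1.11, adjusted p = 0.0395) passed as well.

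Among 18 fibrillar and basement collagens the median was -0.12 and 4 had an unadjusted p under 0.05, all lower (against 2.13% of tested genes). They were Col4a1, Col4a2, Col15a1 and Col18a1, which belong to basement membranes, and 0 members passed without replicate 1. Col4a6, described above, is not in this list. Of 13 tested endothelial markers, 1 had an unadjusted p under 0.05, lower, and 0 passed without replicate 1 (median -0.18). Col4a1 was at 44.4, 32.5, 22.4 and 31.6 FPKM with sonidegib and 24.2, 15.7, 20.3 and 13.1 FPKM with the combination (-0.80, and -0.94 with adjusted p = 0.105). Col4a1 and Col4a2 lie head to head on opposite strands. Among 18 tested cancer-associated fibroblast markers the median was 0.32, with 15 above 0 and 3 below, among the latter Vim (-0.56) and Pdgfrb (-0.17). An unadjusted p under 0.05 was found for 4, all higher (against 2.16% of tested genes). Postn, periostin, a matrix protein of activated fibroblasts, was at 67.2, 17.2, 47.8 and 25.8 FPKM against 13.4, 239, 83.1 and 196 FPKM (1.29, and 2.15 with adjusted p = 0.0365 without replicate 1). S100a4 was at 7.28, 5.30, 6.65 and 8.88 FPKM against 7.83, 21.9, 12.5 and 36.3 FPKM (1.17, and 1.51 with adjusted p = 0.0371). Many leukocytes express S100a4 too, Ly6c1 is shared between this list and the monocyte list, and Thy1 is shared with the T cell list.

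**Figure D4:**
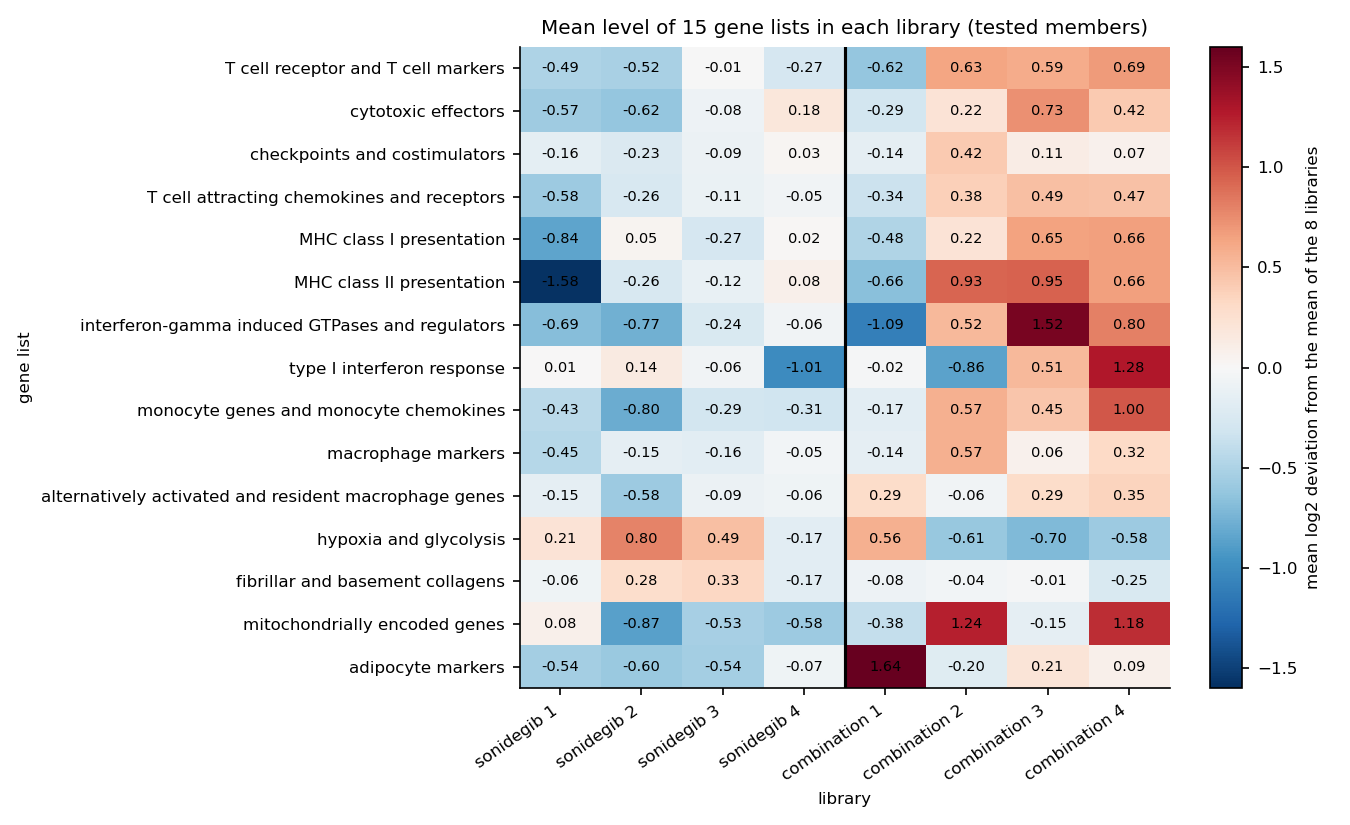
Mean log2 deviation of the tested members of 15 gene lists (rows) from their mean over the 8 libraries (columns), with red above and blue below, and the line dividing sonidegib from combination libraries. Combination replicates 2 to 4 are above the mean for T cell, MHC and interferon-gamma lists and below it for hypoxia and glycolysis, while combination replicate 1 is at -0.62 for T cell genes and 0.56 for hypoxia and glycolysis.

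Measures of other tissue and of RNA composition also differed between these libraries. The 13 mitochondrially encoded genes all had a difference above 0, with a median of 1.00, or 0.62 with the GC trend removed. Of the 13, 7 had an unadjusted p under 0.05 (against 2.16% of tested genes, higher). Their summed level was 9435 to 17730 FPKM with sonidegib, 12620 and 14150 FPKM in combination replicates 1 and 3, and 41950 and 38520 FPKM in replicates 2 and 4. Within the combination group some genes named above were likewise highest in replicates 2 and 4, among them Tyrobp, B2m, Plac8, Ccr2 and S100a4, while Iigp1 and Igtp were highest in replicate 3. The summed level of 14 skeletal muscle markers was 19.1 to 168 FPKM with sonidegib and 8.53, 24.0, 14.1 and 455 FPKM in combination replicates 1 to 4. Of the 14, 13 had a difference below 0 (median -0.68, or -0.42 without replicate 1), and 0 had an unadjusted p under 0.05. The 15 adipocyte markers summed to 10.97 to 21.4 FPKM with sonidegib, 171 FPKM in combination replicate 1 and 15.7 to 24.2 FPKM in replicates 2 to 4. All 6 tested adipocyte markers had a difference above 0 (median 0.62, or 0.35 without replicate 1), 2 of them with an unadjusted p under 0.05. All 6 tested red blood cell genes had a difference below 0 (median -0.68, and -1.05 without replicate 1), 0 of them with an unadjusted p under 0.05, and the list summed to 279 to 526 FPKM with sonidegib and 609.7, 83.2, 416 and 147 FPKM in combination replicates 1 to 4. Of 16 B cell and plasma cell markers, 12 were under the filter and 4 were tested. Igkc, the immunoglobulin kappa constant region of B and plasma cells, was at 0.840, 6.60, 1.88 and 1.15 FPKM with sonidegib and 0.739, 6.96, 20.99 and 18.6 FPKM with the combination (1.52, and 2.30 with adjusted p = 0.0212 without replicate 1). The other tested members were Ighm (0.80, and 0.91 without replicate 1), Xbp1 (0.04, and 0.18) and Sdc1 (-0.19, and -0.47), and none of them passed. The part of these components in the differences above was not tested.

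Genes of the pathway that sonidegib blocks are given for their levels, since with all libraries 0 genes of any kind passed, and 9 of the 20 listed were under the filter and not in the limma test. Ptch1, the receptor for Hedgehog ligands, was at 3.14, 3.46, 4.11 and 2.10 FPKM with sonidegib and 3.29, 2.21, 2.15 and 2.66 FPKM with the combination (-0.22, SE 0.23, adjusted p = 0.959). Smo, the target of sonidegib, was at 15.6 ± 2.63 FPKM against 17.8 ± 3.75 (SD, n = 4; 0.17, SE 0.24). Gli1 was near 0 in both groups, at 0.0166 to 0.324 FPKM and 0.0582 to 0.190 FPKM (exact permutation p = 0.914, n = 4 and 4), and Hhip at 0 to 0.00482 FPKM in all 8 libraries. Over 11 tested Hedgehog genes the median was -0.18, and 0 had an unadjusted p under 0.05. Over 29 tested genes of ceramide and sphingolipid metabolism the median was -0.02, and 0 had an unadjusted p under 0.05. Cers6, a ceramide synthase, was at 3.60 ± 1.21 FPKM against 2.77 ± 0.367 (SD, n = 4; -0.25, SE 0.27), and Cers4 was under the filter at 0.193 to 4.22 FPKM against 0.430 to 0.863 FPKM (exact permutation p = 0.514). Among 34 proliferation genes the median was -0.27, with 3 at an unadjusted p under 0.05, all lower, and 0 passing without replicate 1.

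Alkal2, a ligand of the receptor tyrosine kinases ALK and LTK (chromosome 12, 30884322 to 30893854, plus strand), was lower in the combination group. It was at 9.92, 8.44, 5.71 and 11 FPKM with sonidegib and 1.29, 1.69, 1.19 and 1.51 FPKM with the combination. All 4 combination libraries, including replicate 1, were below all sonidegib libraries, with a difference of -1.98 (SE 0.40, adjusted p = 0.641), or -1.96 (adjusted p = 0.0506) without replicate 1. A fit to the 8 libraries alone called it (adjusted p = 0.0198). Without sonidegib the order was the reverse, with 1.71 ± 1.59 FPKM for vehicle and 7.69 ± 5.82 for anti-PD-L1 (SD, n = 4). The interaction, that is, the difference on adding the antibody with sonidegib minus the same difference without it, was -3.68 (SE 0.56, adjusted p = 0.0490), and Alkal2 was the 1 gene of 15105 (0.00662%) that passed. Acp1 overlaps it on the opposite strand. With all 16 libraries the call was lost under 6 other settings, among them median-of-ratios scaling and a pseudocount of 0.1, and it was also lost when any 1 of 12 libraries was left out.

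Without combination replicate 1, 5 genes passed the interaction (0.0331%): Ly6a (2.84), Hoxb2 (1.75) and Ly6c2 (1.69) had the larger difference with sonidegib, and Alkal2 (-3.65) and Pgf (-2.60) the lower one, each with an adjusted p of 0.0434. Hoxb2, a homeobox factor, was at 0.243, 1.16, 0.162 and 0.202 FPKM with sonidegib and 0.152, 4.11, 4.22 and 3.27 FPKM with the combination, and an antisense gene overlaps it. For the other genes above, a dependence of the antibody's effect on sonidegib was not shown. Between anti-PD-L1 and vehicle, limma called 0 of 15105 genes (0%), with 3712 at an unadjusted p under 0.05, and the median gene was 0.30 higher with the antibody. Vehicle replicate 3 was low across genes, with a median deviation of -0.764. Median-of-ratios scaling moved this median to -0.02 and that of the interaction from -0.35 to 0.04. Against this background 100 of the 105 higher genes had a difference above 0 between anti-PD-L1 and vehicle, as had 76.1% of all genes. The medians of that comparison were 0.63 for interferon-gamma GTPases, 0.43 for T cell genes, 0.35 for monocyte genes and 0.01 for hypoxia and glycolysis.

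**Figure D5:**
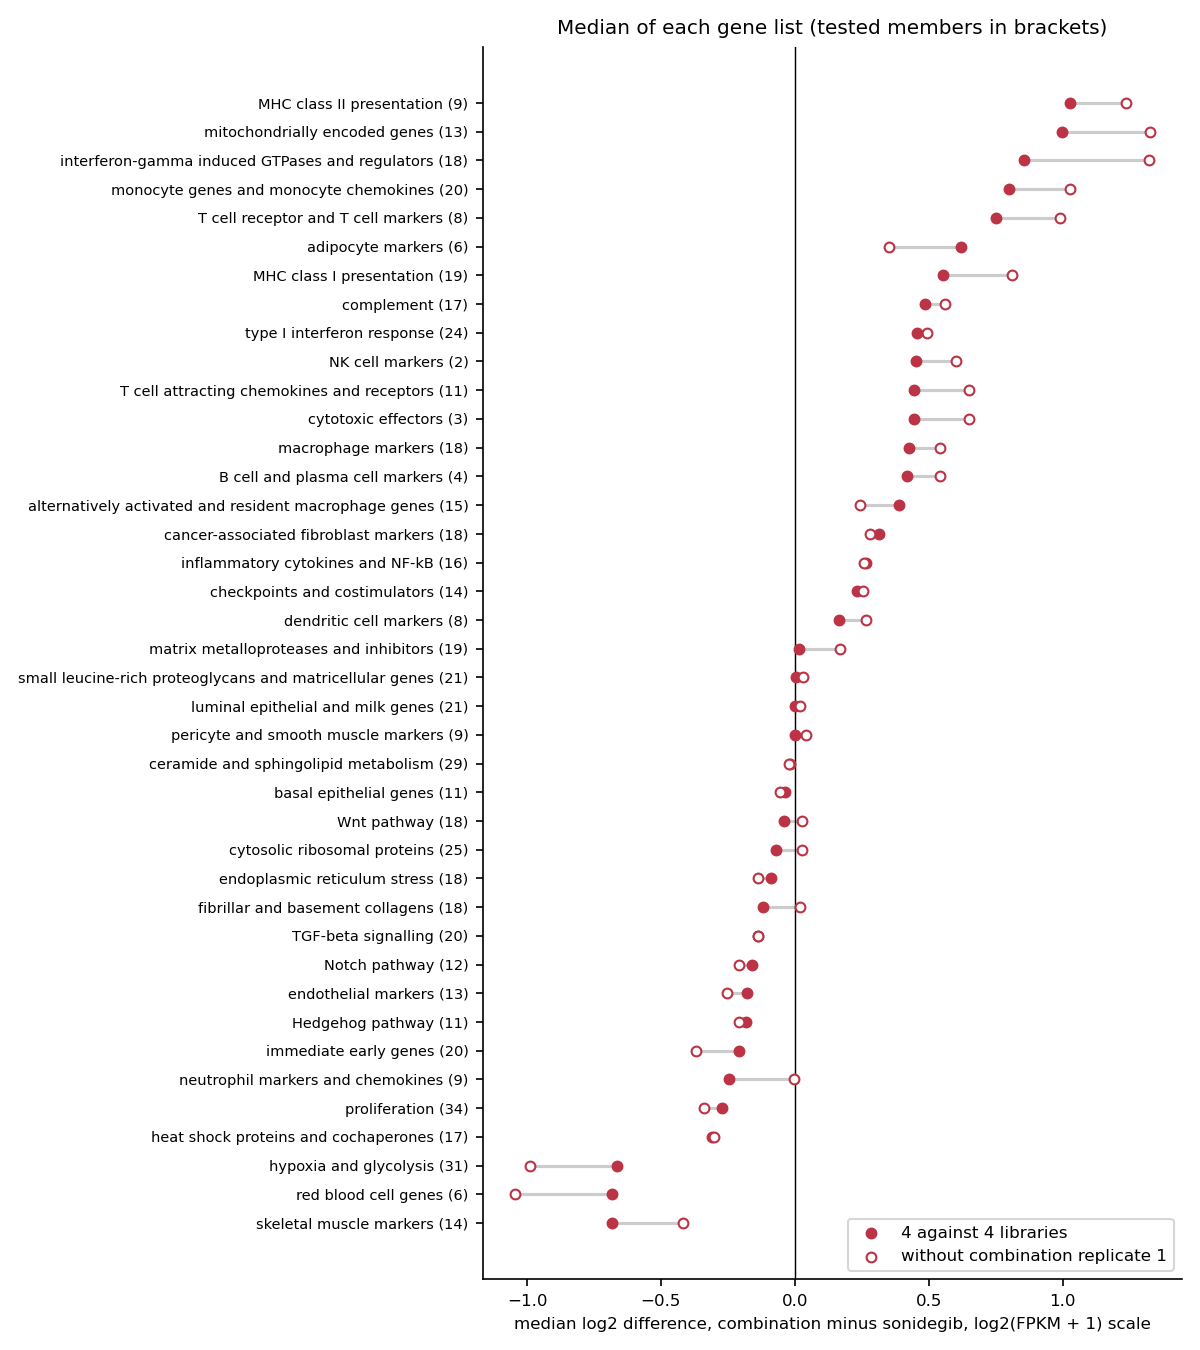
Median log2 difference (combination minus sonidegib) over the tested members of each gene list, number in brackets, with all 8 libraries (filled) and without combination replicate 1 (open). MHC class II, mitochondrial, interferon-gamma, monocyte and T cell lists lie at 0.75 to 1.03 with all 8 libraries. Skeletal muscle and red blood cell lists lie at -0.68, and hypoxia and glycolysis at -0.66.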

How the data were processed

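Bulk RNA-seq of 16 mouse tumour libraries in 4 groups was used. The authors deposited 1 table of FPKM values per gene, made with TopHat and Cufflinks on builds GRCm38.p6 and mm10, per the submitters' processing notes. For tool versions and annotation: not given in the sources used here. A gene entered the test when 4 or more libraries reached 1 FPKM. The test was limma 3.58.1 (R 4.3.3) on log2(FPKM + 1), with trend and robust variance, 1 mean per group over 16 libraries, two-sided, and Benjamini-Hochberg adjustment at 0.05. Genes under the filter had an exact permutation test. Depth was estimated from the spacing of low values and is approximate. Coordinates are from GENCODE M21 (53992 of 55146 identifiers matched with version) and promoter windows from RefSeq. Simulated data were used to test the fit.

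Named genes were the 10 higher and 10 lower genes with the lowest p (mean of at least 1 FPKM, no predicted name, no 0), the 4 lowest p of each of 15 described lists, and a fixed set of pathway genes. The members and lists were chosen with earlier results of these data known. Alternatives changed the scaling, pseudocount, filter, variance model, replicate block and libraries. A deposited 0 can be a failed estimate. Same-numbered replicates are not said to share an animal or batch. Some results are not reported here.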

Additional observations from a re-analysis of the deposited data

Results flagged for a closer look

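In 80 groups of 4 libraries, 12 held a library whose gap to its nearest neighbour was large for the range of its group, and chance gives about 1 in 20. Combination replicate 1 was the outlying library for Ly6a (30.1 FPKM), Pgf (25.4 FPKM) and Hoxb2 (0.152 FPKM), and for the mean log2 deviation of T cell genes (-0.623), T cell attracting chemokines (-0.341) and hypoxia and glycolysis genes (0.565). Sonidegib replicate 2 was outlying for Ccl8 (6.77 FPKM), Espn (8.93 FPKM), Hoxb2 (1.16 FPKM) and alternatively activated and resident macrophage genes (-0.577). Combination replicate 2 was outlying for the same macrophage list (-0.0577) and sonidegib replicate 4 for adipocyte markers (-0.0653). The effect of the antibody on Alkal2 differed between tumours with and without sonidegib by -3.68 on the log2 scale (limma interaction).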

How the results depend on the processing

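Between the combination and sonidegib, limma called 0 genes with all 16 libraries and 2 in a fit to the 8 libraries alone (Gm22411 and Alkal2). Leaving out single libraries gave 0 to 115 calls, and 115 came only without combination replicate 1, with 84 when the GC trend was also removed and 257 with median-of-ratios scaling, both chosen after seeing the data. The interaction had 1 call, and 0 under median-of-ratios scaling, quantile normalization, a pseudocount of 0.1, no filter on low values, a mean of at least 5 FPKM (which left Alkal2 out of the test), a replicate block over 16 libraries, and no trend or robust estimation. Leaving out single libraries gave 0 to 5 interaction calls, and without combination replicate 1 there were 5 with the GC trend removed and 2 with median-of-ratios scaling. Anti-PD-L1 against vehicle gave 0 to 3927 calls when single libraries were left out, the 3927 without vehicle replicate 4. The cause of these shifts was not tested. Of 2173 pairs of a named gene and a setting, 2172 kept their direction, and Lpl turned to -0.12 with the GC trend removed and combination replicate 1 left out. With the replicate block the comparison of the combination with sonidegib had 0 calls. Deviations from the group means correlated at -0.434, -0.252, 0.206 and 0.007 between same-numbered libraries. Such correlations cannot tell whether the numbers mark a shared donor or batch, which the labels do not say. Depth is only an estimate, so genes near 1 FPKM carry an error that is not known.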

Other observations

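Chosen after the data were seen, 33 of the 105 genes higher without combination replicate 1 lay in 7 runs of at least 3 such genes with gaps under 500 kb. Each stretch runs from its first to its last such gene, so a high share passing within it is partly by construction. On chromosome 1, 9 of 19 tested genes between 84992690 and 85550577 passed, and 18 of the 19 had a difference above 0. They include C130026I21Rik, A530032D15Rik and Gm7592, overlapping near-identical copies whose fragments cannot be assigned with certainty. On chromosome 6, Trbv3, Trbc1 and Trbc2 of the T cell receptor beta locus were the 3 genes tested between 41048290 and 41548352, and all passed, with differences of 1.23 to 1.91. On chromosome 7, Gvin1, a large interferon-inducible GTPase, and its relatives Gm4070 and Gm8995 passed among 4 tested genes between 105895139 and 106511671.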
